A study of Mus musculus with 6 samples.

Results

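The genes described here are 9 inhibitors of mitogen-activated protein (MAP) kinase signalling: 6 dual-specificity phosphatase genes (Dusp1, Dusp2, Dusp4, Dusp5, Dusp6 and Dusp10), the Sprouty genes Spry1 and Spry2, and the Sprouty-related gene Spred1. They were chosen by name, with earlier results of these data known. Probe sets whose only gene symbol is one of these were used, which gave 1 for each of the 9 genes among 19938 genes measured. Levels came from 6 arrays of sorted mouse CD4+ CD44+ T cells from draining lymph nodes, in 3 groups of 2 arrays: Cxcr5-Bcl6-, Cxcr5+Bcl6- and Cxcr5+Bcl6+. CD44 marks T cells that have met antigen. Cxcr5 lets T cells enter B cell follicles, and the repressor Bcl6 is needed for follicular helper T cells, which aid B cells there. All groups came from male Bcl6_RFP reporter mice of 8 to 10 weeks, in which a red fluorescent protein reports Bcl6, immunised with KLH/CFA, the protein antigen keyhole limpet haemocyanin given with complete Freund's adjuvant. Bcl6 status therefore means reporter fluorescence in the sort. The arrays of a group are described as biological replicates. The sources used here do not say if each came from a single mouse, or if cells were stimulated again before lysis.

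MAP kinases are switched on by dual phosphorylation of a threonine and a tyrosine, which follows engagement of the T cell receptor through Ras, Raf and the MAP kinase kinases. The dual-specificity phosphatases described here remove both phosphates and so end the signal, whereas Sprouty and Spred proteins act upstream and limit activation of Ras and Raf. Several of these genes are themselves transcribed when MAP kinases are active, so that they form negative feedback loops, and in T cells their mRNAs are known to rise soon after antigen contact.

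The sort markers followed the labels: Bcl6 lay between 11.45 and 11.55 in Cxcr5+Bcl6+ arrays and between 10.31 and 10.56 in the other arrays, and Cxcr5 between 7.34 and 7.61 in Cxcr5-Bcl6- arrays and between 9.91 and 11.01 in both Cxcr5+ groups (log2 level). Replicate arrays correlated across probe sets at r = 0.9966 to 0.9985, where probe sets are not independent replicates. As a gauge of dim signal, 1218 probe sets for olfactory, vomeronasal and trace-amine receptors had a median level of 5.77 and a 95th percentile of 7.51. All 8 measured T cell markers were above that percentile on every array. Of the 9 genes, Dusp1, Dusp2, Dusp4, Dusp5, Dusp6, Dusp10, Spry1 and Spred1 were above it on all 6 arrays and Spry2 on 0. Levels spread less over probe sets on Cxcr5+Bcl6+ arrays (interquartile range 2.86 and 2.97) than on the other 4 (3.02 to 3.15), and the receptor probe sets differed by a median of 0.22 between Cxcr5+Bcl6+ and Cxcr5-Bcl6- arrays (log2, higher in the former).

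Levels of 7 of the 9 genes were lower in Cxcr5+Bcl6+ cells than in Cxcr5-Bcl6- cells, and 6 of them were at least 2-fold lower: Dusp2, Dusp4, Dusp5, Dusp6, Spry1 and Spred1. Over all 23410 named probe sets, 35.3% were called in this comparison, 17.7% lower and 17.6% higher, and 3.66% were called and at least 2-fold lower. Of the 9 genes, all but Spry2 were brighter than 69.4% to 94% of all probe sets. With only the 11705 probe sets at or above the median level tested, 56.8% were called, 3889 lower and 2760 higher. The median difference was -1.56 over the 9 genes and 0.04 over all 19938 genes (log2, Cxcr5+Bcl6+ minus Cxcr5-Bcl6-). A gene was called where limma's moderated test gave a Benjamini-Hochberg adjusted p under 0.05 over all named probe sets. In Cxcr5+Bcl6- cells 7 of the 9 were lower than in Cxcr5-Bcl6- cells, with a median of -0.52, and 0 were higher. Of all probe sets 11.1% were called there, 5.93% lower and 5.22% higher. Among those at or above the median level 22.9% were called, 1301 lower and 1376 higher. None of the 7 reached 2-fold, as 0.47% of all probe sets did. Between the Cxcr5+ groups 6 were lower in Cxcr5+Bcl6+ cells and 1, Dusp1, was higher, and 4 of the 6, Dusp4, Dusp5, Dusp6 and Spred1, were at least 2-fold lower. Of all probe sets 26.4% were called between these groups, 13.0% lower and 13.4% higher, and 1.65% at least 2-fold lower. At or above the median level the share was 40.3%, with 3105 lower and 1613 higher. Rises made up 50.8% of all calls between the Cxcr5+ groups as deposited and 35.0% after each array was centred on its median. The 3 comparisons share arrays and are not independent. As the 9 genes were chosen with earlier results known, their counts beside the shares of all probe sets are a description and no test. In bulk RNA, fewer cells that express a gene and less of its RNA per cell cannot be told apart.

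**Figure D1:**
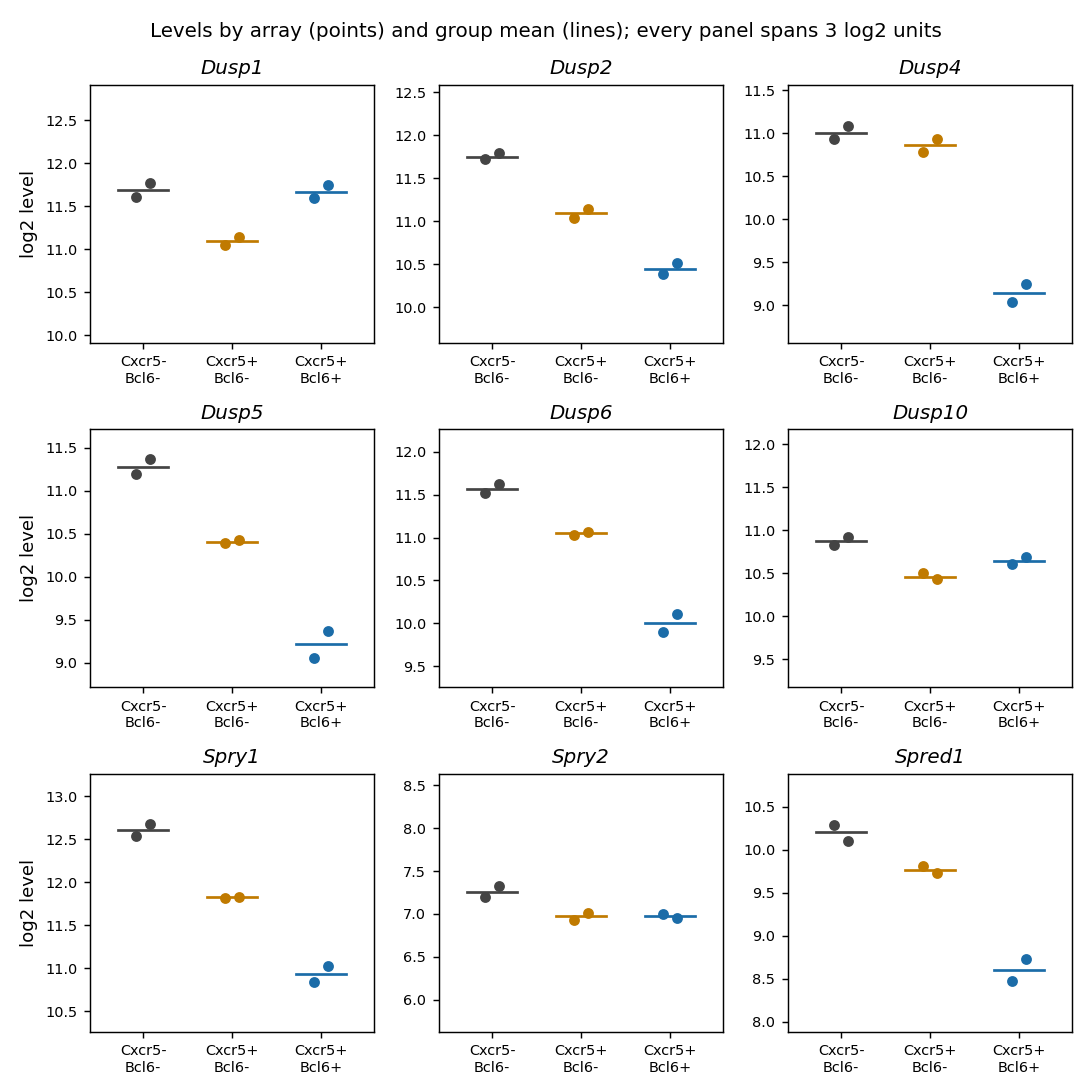
Log2 level of each gene on every array (points) and the mean of each sorted group (lines), with every panel spanning the same number of log2 units. Dusp2, Dusp5, Dusp6, Spry1 and Spred1 step down from Cxcr5-Bcl6- over Cxcr5+Bcl6- to Cxcr5+Bcl6+ arrays, Dusp4 drops in Cxcr5+Bcl6+ arrays, and Dusp1 is lowest in Cxcr5+Bcl6- arrays.

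Promoters of the genes were read from RefSeq (GRCm38.p6), which gave 8 of the 9 genes, all but Dusp4. The 250 bases before each annotated start were searched on both strands for the cAMP response element TGACGTCA, the AP-1 element TGANTCA, the EGR element GCGGGGGCG, the ETS core CCGGAA, the STAT and Bcl6 core TTCNNNGAA, and the CArG box of serum response factor. Of 32851 promoters of that length these were found in 1.55%, 6.75%, 2.57%, 12%, 7.02% and 1.47%, in the same order. Among the 8 genes the cAMP element stood in Dusp1, the EGR element in Dusp2 and CArG boxes in Dusp5, while AP-1, ETS and TTCNNNGAA matched 0 of 8, and no matches shared bases. A match is a description of letters and shows no binding. The windows of Dusp2 and Dusp5, which were lower in both Cxcr5+ groups than in Cxcr5-Bcl6- cells, and of Dusp1, which was lower in 1 of them, are shown 5′ to 3′ on the gene's strand, with the matches in capitals: chr2:127335909-127336158 (+) for Dusp2, chr19:53528895-53529144 (+) for Dusp5 and chr17:26508473-26508722 (-) for Dusp1.
Dusp2: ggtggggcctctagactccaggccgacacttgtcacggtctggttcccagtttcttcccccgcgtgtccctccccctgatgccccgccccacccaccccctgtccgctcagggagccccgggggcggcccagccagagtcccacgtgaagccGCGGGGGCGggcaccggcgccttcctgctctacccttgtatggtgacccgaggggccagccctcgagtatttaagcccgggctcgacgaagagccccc
Dusp5: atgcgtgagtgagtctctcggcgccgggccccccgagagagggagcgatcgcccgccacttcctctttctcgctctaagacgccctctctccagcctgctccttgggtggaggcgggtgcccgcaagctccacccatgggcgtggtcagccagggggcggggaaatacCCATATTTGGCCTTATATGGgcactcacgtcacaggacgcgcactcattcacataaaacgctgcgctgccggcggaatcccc
Dusp1: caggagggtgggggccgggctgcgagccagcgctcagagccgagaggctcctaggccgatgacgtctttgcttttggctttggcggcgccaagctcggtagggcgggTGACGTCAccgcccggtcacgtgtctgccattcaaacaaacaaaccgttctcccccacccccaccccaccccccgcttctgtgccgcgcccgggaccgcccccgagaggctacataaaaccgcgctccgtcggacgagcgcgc
The EGR element of Dusp2 lay 98 to 90 bases before the start. Dusp5 held a pair of adjoining CArG boxes, 82 to 73 and 72 to 63 bases before it. The cAMP response element of Dusp1 lay 143 to 136 bases before the start.

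Dusp5 and Dusp6 encode phosphatases selective for the MAP kinases ERK1 and ERK2, Dusp5 in the nucleus and Dusp6 in the cytoplasm. Dusp5 had the largest fall of the 9 genes in Cxcr5+Bcl6+ cells. Its log2 levels were 11.19 and 11.37 in Cxcr5-Bcl6- arrays, 10.39 and 10.43 in Cxcr5+Bcl6-, and 9.06 and 9.37 in Cxcr5+Bcl6+ arrays. The groups did not overlap, and the gap of 0.314 between the Cxcr5+Bcl6+ arrays was the widest between replicates for any of the 9 genes. With 2 arrays a group a lack of overlap alone shows little, as it also held for Dusp10 and Spry2 in comparisons that were not called. The level was 4.19-fold lower in Cxcr5+Bcl6+ cells than in Cxcr5-Bcl6- cells (95% confidence interval 3.52 to 4.99, adjusted p = 1.25e-07). It was 1.83-fold lower in Cxcr5+Bcl6- cells than in Cxcr5-Bcl6- cells (adjusted p = 0.00048) and 2.29-fold lower in Cxcr5+Bcl6+ cells than in Cxcr5+Bcl6- cells (adjusted p = 1.72e-05).

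Dusp6 stood at 11.52 and 11.62 in Cxcr5-Bcl6- arrays, 11.03 and 11.06 in Cxcr5+Bcl6-, and 9.90 and 10.11 in Cxcr5+Bcl6+ arrays, in the same order and again without overlap. It was 2.96-fold lower in Cxcr5+Bcl6+ cells than in Cxcr5-Bcl6- cells (95% confidence interval 2.54 to 3.43, adjusted p = 3.54e-07). The difference was 1.43-fold between Cxcr5+Bcl6- cells and Cxcr5-Bcl6- cells (adjusted p = 0.00545) and 2.06-fold between the Cxcr5+ groups (adjusted p = 1.6e-05), lower in the Cxcr5+ group and in the Bcl6+ group respectively. Both ERK phosphatases thus were called at each step from Cxcr5-Bcl6- over Cxcr5+Bcl6- to Cxcr5+Bcl6+.

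Dusp2 and Dusp4 encode inducible nuclear phosphatases (PAC-1 and MKP-2), and PAC-1 is known from activated lymphocytes. Dusp2 levels were 11.72 and 11.79 in Cxcr5-Bcl6- arrays, 11.04 and 11.14 in Cxcr5+Bcl6-, and 10.38 and 10.51 in Cxcr5+Bcl6+ arrays. The groups lay in 3 evenly spaced, separate bands, and the level was 2.48-fold lower in Cxcr5+Bcl6+ cells than in Cxcr5-Bcl6- cells (95% confidence interval 2.15 to 2.85, adjusted p = 8.92e-07). It was 1.59-fold lower in Cxcr5+Bcl6- cells than in Cxcr5-Bcl6- cells and 1.56-fold lower in Cxcr5+Bcl6+ cells than in Cxcr5+Bcl6- cells (adjusted p = 0.000757 and 0.000397).

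Dusp4 had another course. Its levels were 10.93 and 11.09 in Cxcr5-Bcl6- and 10.78 and 10.94 in Cxcr5+Bcl6- arrays, which overlapped, and 9.04 and 9.25 in Cxcr5+Bcl6+ arrays, which lay far below both. The difference between Cxcr5+Bcl6- and Cxcr5-Bcl6- cells was -0.15 (log2, 95% confidence interval -0.38 to 0.08, adjusted p = 0.505). Dusp4 was 3.28-fold lower in Cxcr5+Bcl6+ cells than in Cxcr5+Bcl6- cells (95% confidence interval 2.79 to 3.86, adjusted p = 5.73e-07) and 3.65-fold lower than in Cxcr5-Bcl6- cells (adjusted p = 1.68e-07).

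Spry1, an inhibitor of Ras and ERK activation that has been studied in T cells, had levels of 12.54 and 12.68 in Cxcr5-Bcl6- arrays, 11.82 and 11.83 in Cxcr5+Bcl6-, and 10.84 and 11.02 in Cxcr5+Bcl6+ arrays. The groups did not overlap. Spry1 was 3.2-fold lower in Cxcr5+Bcl6+ cells than in Cxcr5-Bcl6- cells (95% confidence interval 2.76 to 3.71, adjusted p = 1.94e-07). The level fell 1.72-fold between Cxcr5-Bcl6- cells and Cxcr5+Bcl6- cells (adjusted p = 0.000319) and 1.86-fold between Cxcr5+Bcl6- and Cxcr5+Bcl6+ cells (adjusted p = 4.74e-05).

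Spred1, which brings the Ras inhibitor neurofibromin to the membrane, stood at 10.29 and 10.10 in Cxcr5-Bcl6- arrays, 9.81 and 9.73 in Cxcr5+Bcl6-, and 8.47 and 8.73 in Cxcr5+Bcl6+ arrays. It was 3.03-fold lower in Cxcr5+Bcl6+ cells than in Cxcr5-Bcl6- cells (95% confidence interval 2.57 to 3.57, adjusted p = 6.43e-07) and 2.25-fold lower than in Cxcr5+Bcl6- cells (adjusted p = 1.41e-05). The smaller difference between Cxcr5+Bcl6- and Cxcr5-Bcl6- cells, 1.35-fold, passed in the fit to all arrays (adjusted p = 0.0256). The call ended without Cxcr5-Bcl6- replicate 1 (adjusted p = 0.13), without Cxcr5+Bcl6- replicate 1 (0.0738), without Cxcr5+Bcl6- replicate 2 (0.162), or with all rows of the table tested (0.116).

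Spry2, another Sprouty inhibitor of the Ras and ERK pathway, was dim. Its levels were 7.20 and 7.32 in Cxcr5-Bcl6- arrays, 6.94 and 7.01 in Cxcr5+Bcl6-, and 7.0 and 6.95 in Cxcr5+Bcl6+ arrays, all under the 95th percentile of the receptor probe sets. The Cxcr5-Bcl6- arrays lay slightly above the rest and both Cxcr5+ groups overlapped. The 1.22-fold lower level in Cxcr5+Bcl6+ cells than in Cxcr5-Bcl6- cells passed (adjusted p = 0.0311), while the same fold in Cxcr5+Bcl6- cells did not (adjusted p = 0.0669). The former call ended without Cxcr5+Bcl6+ replicate 1 (adjusted p = 0.061), Cxcr5+Bcl6+ replicate 2 (0.104), Cxcr5-Bcl6- replicate 2 (0.134) or either Cxcr5+Bcl6- replicate (0.0647 each), and with all rows of the table tested (0.0644).

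Dusp1 and Dusp10 encode phosphatases that act mainly on the stress kinases p38 and JNK. Dusp1, an immediate-early gene, had levels of 11.61 and 11.77 in Cxcr5-Bcl6- arrays, 11.05 and 11.14 in Cxcr5+Bcl6-, and 11.59 and 11.74 in Cxcr5+Bcl6+ arrays. The Cxcr5+Bcl6- arrays lay below all others, and the outer groups overlapped. Dusp1 was 1.51-fold lower in Cxcr5+Bcl6- cells than in Cxcr5-Bcl6- cells (95% confidence interval 1.3 to 1.75, adjusted p = 0.00236) and 1.48-fold higher in Cxcr5+Bcl6+ cells than in Cxcr5+Bcl6- cells (95% confidence interval 1.28 to 1.72, adjusted p = 0.00135). Between Cxcr5+Bcl6+ and Cxcr5-Bcl6- cells the log2 difference was -0.03 (95% confidence interval -0.24 to 0.19, adjusted p = 0.873).

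Dusp10 levels were 10.83 and 10.92 in Cxcr5-Bcl6- arrays, 10.50 and 10.43 in Cxcr5+Bcl6-, and 10.61 and 10.69 in Cxcr5+Bcl6+ arrays. Cxcr5+Bcl6- arrays were again lowest, but the whole range over the 6 arrays was 0.491. The level was 1.33-fold lower in Cxcr5+Bcl6- cells than in Cxcr5-Bcl6- cells (adjusted p = 0.012), a call that ended without Cxcr5-Bcl6- replicate 2 (0.0595), without Cxcr5+Bcl6- replicate 1 (0.0684) or replicate 2 (0.139), and with all rows tested (0.0563). The log2 differences of -0.23 between Cxcr5+Bcl6+ cells and Cxcr5-Bcl6- cells, and 0.18 between the Cxcr5+ groups did not pass (adjusted p = 0.0734 and 0.159). The former passed after each array was centred on its median (adjusted p = 0.0356) and among probe sets above the median level (0.0381), and the latter after renewed quantile normalisation (0.033).

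**Figure D2:**
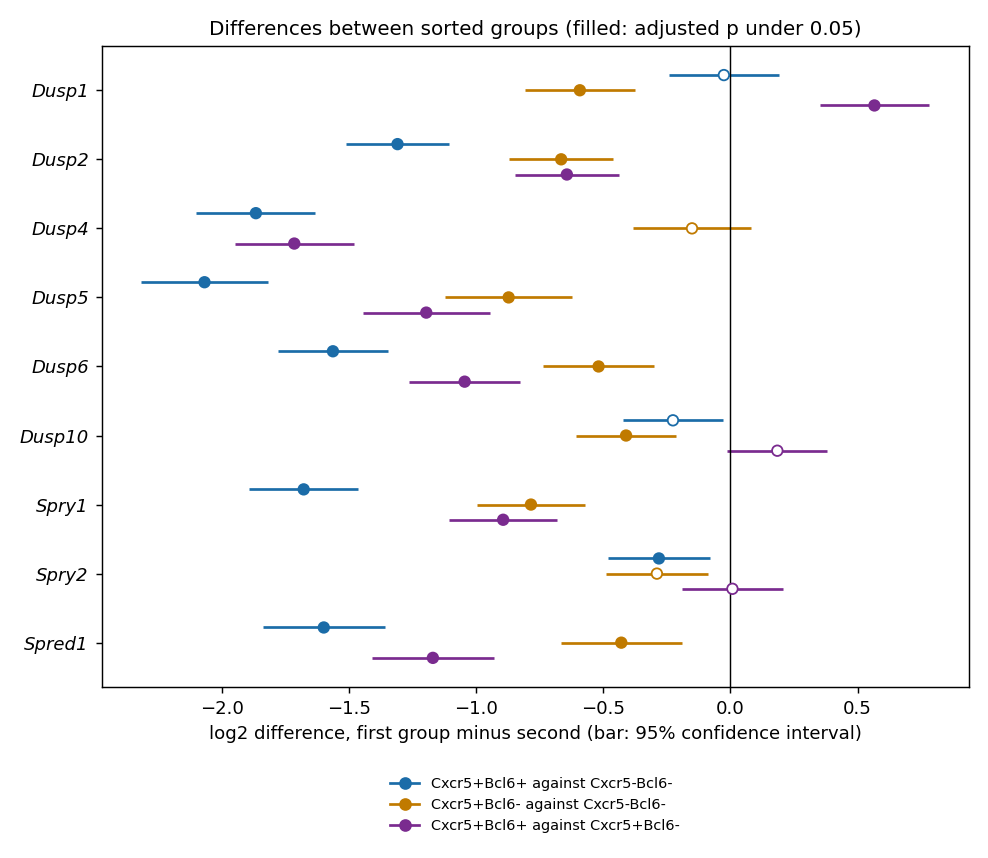
Log2 difference of each gene between sorted groups, the first-named group minus the second, with 95% confidence intervals from the limma fit. Filled points passed an adjusted p under 0.05. Dusp5 reaches -2.07 for Cxcr5+Bcl6+ minus Cxcr5-Bcl6- cells, while Dusp1 is the gene with a called rise, 0.57 between the Cxcr5+ groups.

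The genes with a large fall differed in where it lay between the groups. The sorted groups are not a time course, and the step from Cxcr5-Bcl6- to Cxcr5+Bcl6- and the step from Cxcr5+Bcl6- to Cxcr5+Bcl6+ are only an order of markers. The first of these steps held 50.9% of the whole log2 fall of Dusp2, 46.7% of that of Spry1, 42.2% of that of Dusp5, 33.2% of that of Dusp6, 26.8% of that of Spred1 and 8.09% of that of Dusp4. The second step minus the first was tested as a contrast in the same fit, which was chosen after the levels had been seen, and 8.24% of all probe sets passed it, 4.16% with a negative and 4.08% with a positive difference. Positive differences made up 49.5% of these calls as deposited and 35.3% after centring each array. Dusp4 fell more at the second step, by 1.56 on the log2 scale (95% confidence interval of the difference -1.97 to -1.16, adjusted p = 0.000206). For Dusp1, which fell at the first step and rose at the second, the difference between steps was 1.16 (0.79 to 1.53, adjusted p = 0.00108).

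The step differences of Spred1 (-0.74, adjusted p = 0.0329) and Dusp10 (0.59, adjusted p = 0.0372) passed as well, but less firmly. The Spred1 call ended without Cxcr5+Bcl6+ replicate 1 (adjusted p = 0.0856), Cxcr5-Bcl6- replicate 2 (0.0677), Cxcr5+Bcl6- replicate 1 (0.274) or Cxcr5+Bcl6- replicate 2 (0.113). That of Dusp10 ended without Cxcr5+Bcl6+ replicate 1 (0.0518) or replicate 2 (0.0772), Cxcr5-Bcl6- replicate 2 (0.0741), or Cxcr5+Bcl6- replicate 1 (0.217) or replicate 2 (0.385). With the replicate number as a block, neither passed (0.0527 for Spred1 and 0.056 for Dusp10). Dusp6 did not pass (-0.53, 95% confidence interval -0.90 to -0.15, adjusted p = 0.0923), although it did without Cxcr5+Bcl6+ replicate 2 (0.0457). For Dusp2 (0.02, -0.33 to 0.38), Spry1 (-0.11, -0.48 to 0.26), Dusp5 (-0.32, -0.76 to 0.11) and Spry2 (0.30, -0.05 to 0.64) the intervals of the step difference held 0.

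**Figure D3:**
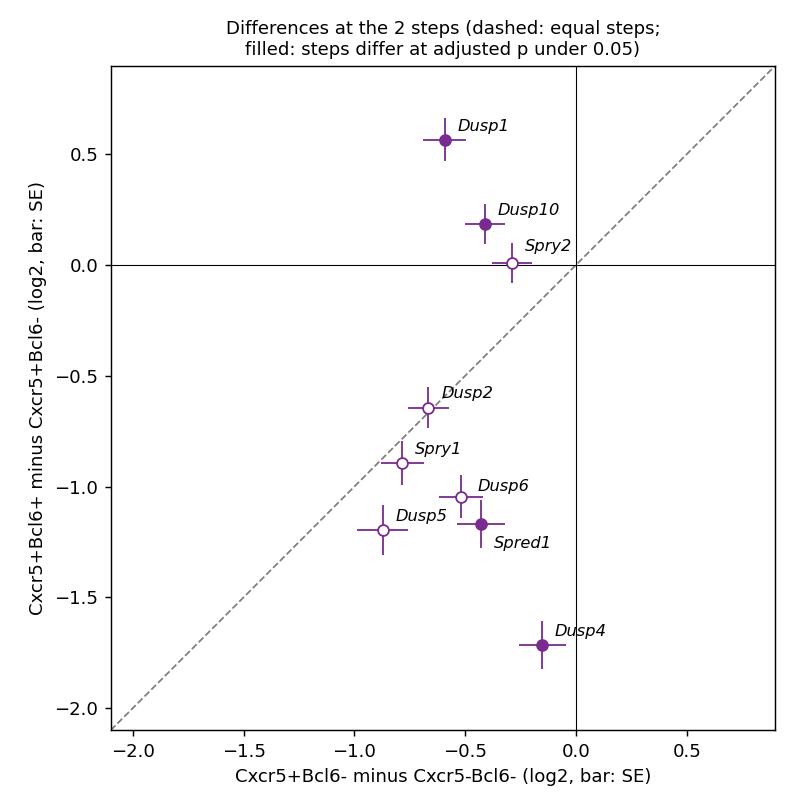
Log2 difference of each gene at the step from Cxcr5-Bcl6- to Cxcr5+Bcl6- (horizontal) and at the step from Cxcr5+Bcl6- to Cxcr5+Bcl6+ (vertical), with standard errors, and a dashed line where both are equal. Dusp4 lies lowest, at -0.15 and -1.72, Dusp1 stands apart at -0.59 and 0.57, and Dusp2 and Spry1 lie near the line.

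No other MAP kinase phosphatase, Sprouty or Spred gene differed by as much as 2-fold in any of the 3 comparisons. Of the other MAP kinase phosphatase genes, Dusp7, an ERK phosphatase like Dusp6, was lower in Cxcr5+Bcl6+ cells than in Cxcr5-Bcl6- cells (log2 difference -0.34, adjusted p = 0.0303). Dusp16 differed by 0.01, Dusp9 by -0.10 and Dusp8 by 0.20 in that comparison, and none of these 3 passed (adjusted p = 0.94, 0.486 and 0.104). Dusp8 was higher in Cxcr5+Bcl6+ cells than in Cxcr5+Bcl6- cells (0.42, adjusted p = 0.0054) by its brighter probe set, whereas its other probe set did not pass (0.25, adjusted p = 0.0791).

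Spred2, the relative of Spred1, was lowest in Cxcr5+Bcl6- cells, as Dusp1 was. Its mean levels were 10.35 ± 0.0172 in Cxcr5-Bcl6- arrays, 9.89 ± 0.0112 in Cxcr5+Bcl6- and 10.17 ± 0.0784 in Cxcr5+Bcl6+ arrays (log2, SD, n = 2 each). It fell by 0.46 on the log2 scale at the first step (adjusted p = 0.00548), rose by 0.28 at the second (adjusted p = 0.0355), and its step difference was 0.74 (adjusted p = 0.0101). The other Spred2 probe set gave -0.62 and 0.34, of which the second did not pass (adjusted p = 0.0742). Spred3 was higher, by 0.34, in the Bcl6+ than in the Bcl6- group of Cxcr5+ cells (adjusted p = 0.0305). It was dim, with a mean level of 7.55 in Cxcr5+Bcl6- arrays, and the receptor probe sets were higher by a median of 0.30 in the same comparison. Spry3 and Spry4 were called in 0 of 3 comparisons each, with log2 differences from Cxcr5-Bcl6- to Cxcr5+Bcl6+ cells of 0.12 and 0.02 (adjusted p = 0.352 and 0.874).

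Many genes listed as MAP kinase response genes, a list also chosen with earlier results known, were lower in the same samples as the phosphatases. Of 20 such genes 15 were lower in Cxcr5+Bcl6+ cells than in Cxcr5-Bcl6- cells, 9 of them at least 2-fold, and 0 were higher, against 17.7% lower, 3.66% at least 2-fold lower and 17.6% higher over all probe sets, with a median log2 difference of -0.93 against 0.04 over all genes. Myc, a growth regulator, differed by -1.97, the AP-1 genes Fosl1, Fos and Jun by -1.91, -1.55 and -1.26, and the immediate-early gene Ier2 by -1.29 (adjusted p of 9.35e-07 or less). Those not called were Elk1, Elk3, Elk4, Etv4 and Etv5 (log2 differences 0.05, 0.26, 0.14, -0.19 and -0.01). Among probe sets at or above the median level 56.8% were called between Cxcr5+Bcl6+ and Cxcr5-Bcl6- cells. At the first step 8 of 20 were lower, against 5.93% of all probe sets, with a median of -0.33. At the second step 14 of 20 were lower, against 13.0% of all probe sets, with a median of -0.58. Jun, unlike Dusp4, fell more at the first step (-0.99) than at the second (-0.27), with a step difference of 0.72 (adjusted p = 0.0136), while Myc and Fosl1 fell more at the second (step differences -1.12 and -1.21, adjusted p = 0.00052 and 0.0016).

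The kinases themselves moved both ways. Of 27 measured genes of the MAP kinase cascade, 8 were higher and 8 lower in Cxcr5+Bcl6+ cells than in Cxcr5-Bcl6- cells, with a median of -0.04. Over all probe sets 17.6% were called higher and 17.7% lower, and among those at or above the median level 56.8% were called. The falls were led by Map3k8 (-1.12), which encodes the kinase TPL2 upstream of ERK, Map2k3 (-0.90), which activates p38, Mapk11 (-0.82), which encodes p38 beta, and Mapkapk3 (-0.73), a substrate kinase of p38. Mapk14, which encodes p38 alpha, was higher by 0.71 (adjusted p = 7.13e-05). Map3k8 and Map2k3, like Dusp4, were close to their Cxcr5-Bcl6- level in Cxcr5+Bcl6- cells (-0.09 and -0.08, adjusted p = 0.648 and 0.749) and differed between steps (-0.93 and -0.75, adjusted p = 0.00225 and 0.00971). Between Cxcr5+Bcl6- and Cxcr5-Bcl6- cells 3 of the 27 were higher and 0 lower, and between the Cxcr5+ groups 2 were higher and 5 lower in Cxcr5+Bcl6+ cells. The counts in the latter 2 comparisons lay near the shares called over all probe sets, 11.1% and 26.4%. Among probe sets at or above the median level the shares called were higher, 22.9% and 40.3%.

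Regulators of Ras showed 9 genes higher and 5 lower of 21 measured in Cxcr5+Bcl6+ against Cxcr5-Bcl6- cells (median 0.16). Over all probe sets 17.6% were higher and 17.7% lower, and among those at or above the median level 56.8% were called. Rasa1 and Rasa3, which encode activators of Ras GTP hydrolysis and so, like Spred1, restrain Ras, were higher by 0.69 and 0.62 (adjusted p = 8.49e-05 and 0.000223). Ptpn11, the phosphatase gene that promotes Ras activation, was higher by 0.53 (adjusted p = 0.000589). Pebp1, a Raf inhibitor, differed by -0.60 and the Ras exchange factor gene Rasgrp4 by -0.73 (adjusted p = 0.000464 and 0.000209). Of these 21 genes, 1 was lower and 0 were higher in Cxcr5+Bcl6- cells compared with Cxcr5-Bcl6- cells, against 5.93% and 5.22% of all probe sets. Between the Cxcr5+ groups 7 were higher and 1 was lower in Cxcr5+Bcl6+ cells, against 13.4% and 13.0% of all probe sets.

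**Figure D4:**
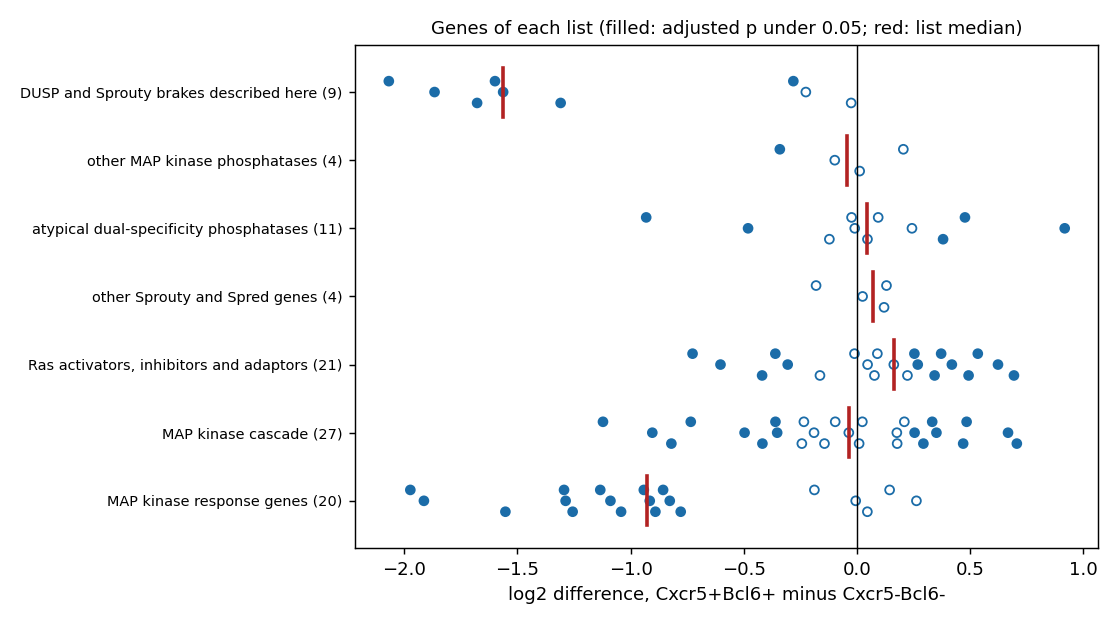
Log2 difference between Cxcr5+Bcl6+ and Cxcr5-Bcl6- cells for every measured gene of each list, with 1 probe set per gene. Filled points passed an adjusted p under 0.05, and red lines are list medians, which lie at -1.56 for the 9 genes, -0.93 for the MAP kinase response genes and between -0.04 and 0.16 for the other lists.

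Profiles of other genes were set against each of the 9 by the root mean square difference over the 6 arrays, after each profile was centred on its own mean, among 18628 curated genes. Nearest to Dusp6 were Usp36 and Pwp2 (0.0316 and 0.032 on the log2 scale), to Spred1 Eef1e1 and Ltv1 (0.04 and 0.0403), and to Dusp2 Gpd2 and Igsf23 (0.0437 and 0.056). Nearest to Dusp5 were Il15ra and Treml2 (0.0636 and 0.0833), to Dusp4 Bcat1 and Slamf7 (0.0736 and 0.116), and to Spry1 Ciart and Csrnp1 (0.0803 and 0.0875). Dusp1 was matched most closely by Slc49a4 and Atn1 (0.0267 and 0.0766), Dusp10 by Mir340 and Mzb1 (0.0307 and 0.0317), and Spry2 by Ak8 and Fam83e (0.0269 and 0.0291). The mean levels of Mir340 were 4.37 to 4.79, under the median of the receptor probe sets. Among the 6 genes with a large fall, the nearest pairs were Spred1 with Dusp6 (0.102) and Spry1 with Dusp6 (0.111), and all such distances describe 3 groups of 2 arrays and carry no test.

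Markers of other cell types moved with the groups in which the 9 genes differed. Of 8 measured T cell markers 5 were higher and 2 lower in Cxcr5+Bcl6+ cells than in Cxcr5-Bcl6- cells, with a median log2 difference of 0.34. Of 12 myeloid and dendritic cell markers, 7 were lower and 1 higher in Cxcr5+Bcl6+ cells than in Cxcr5-Bcl6- cells, and their summed level ran from 12.37 to 12.45 in Cxcr5-Bcl6- arrays, 11.13 to 11.14 in Cxcr5+Bcl6- and 10.78 to 10.84 in Cxcr5+Bcl6+ arrays (log2 of the sum), in the same order as Dusp2, Dusp5, Dusp6, Spry1 and Spred1. Of these 12 markers 5 were at least 2-fold lower, against 3.66% of all probe sets. Over all probe sets 17.7% were called lower and 17.6% higher in this comparison. Against the 95th percentile of the receptor probe sets, 1 of the 12 was above it on all arrays, 6 on some arrays, and 5 (Adgre1, Cd14, Clec9a, Csf1r and Itgam) on 0 arrays. Both CD8 T cell markers were lower in each Cxcr5+ group than in Cxcr5-Bcl6- cells, with sums of 10.06 to 10.08, 9.26 to 9.34 and 9.10 to 9.21. In Cxcr5+Bcl6- against Cxcr5-Bcl6- cells 5.93% of all probe sets were called lower. Neither CD8 marker was called between the Cxcr5+ groups. Of 9 measured B cell markers 8 were higher in Cxcr5+Bcl6+ cells than in Cxcr5-Bcl6- cells and 0 lower, with sums of 10.43 to 10.46, 11.20 to 11.27 and 11.79 to 11.86 in the same order of groups. Of these 9 markers 2 were above that percentile on all arrays, 4 on some arrays, and 3 (Blk, Cd79a and Cr2) on 0 arrays. Sums of 6 stromal and endothelial markers rose from 11.17 to 11.19 in Cxcr5-Bcl6- to 11.57 to 11.58 and 11.84 to 11.86, with 2 of 6 higher, and those of 5 NK and innate-like markers, with 1 higher and 1 lower, lay between 9.08 and 9.37. The counts called for stromal and for NK markers lay near the 35.3% called over all probe sets. Both erythroid and platelet markers were not called, with sums between 8.36 and 8.57. The part of these cells in the levels of the 9 genes was not tested.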

How the data were processed

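Total RNA of 6 sorted CD4+ T cell samples was labelled with biotin and hybridised to Affymetrix whole-transcript arrays, per the labels. The deposited values are log2 probe-set levels. The tools, per the submitters' processing notes, were Affymetrix Expression Console, GCOS 1.1 and RMA, with order and settings not stated; the log2 scale was read from the values. The sources used here give no genome build. For arrays, their number limits the precision.

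Of 35556 rows, 23410 probe sets had a gene in the platform's annotation, 21789 of them a single symbol, updated through Entrez identifiers for 21698, and 1621 had several or none that could be resolved. The 23410 were fitted with limma 3.58.1 in R 4.3.3 (group means over all 6 arrays, eBayes defaults, two-sided, Benjamini-Hochberg over 23410, threshold 0.05; 3 residual and 8.25 prior degrees of freedom). The fit was also run on simulated data with independent normal noise and few changed probe sets, which cannot show its behaviour on these arrays.

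The 9 genes and all lists were chosen with earlier results of these data known. For lists a gene was represented by its brightest probe set on average. Named from each list were, by rule, the 5 genes with the smallest p over the 3 comparisons, and all genes of the other MAP kinase phosphatases and of the other Sprouty and Spred genes, and for each of the 9 genes the 2 with the nearest profile. Lists were the 9 genes, other MAP kinase phosphatases, atypical dual-specificity phosphatases, other Sprouty and Spred genes, Ras regulators, the MAP kinase cascade and response genes, and markers of T, B, myeloid and dendritic, CD8, NK, stromal, and erythroid cells. Alternatives were eBayes options, quantile normalisation, median centring, dim filters, other row sets, the 4 arrays compared, a replicate block and leaving out each array.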

Additional observations from a re-analysis of the deposited data

How the results depend on the processing

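Of the calls on the 9 genes, the falls of Dusp2, Dusp4, Dusp5, Dusp6, Spry1 and Spred1 in Cxcr5+Bcl6+ against Cxcr5-Bcl6- cells and between the Cxcr5+ groups, those of Dusp1, Dusp2, Dusp5, Dusp6 and Spry1 in Cxcr5+Bcl6- cells, and the rise of Dusp1 between the Cxcr5+ groups passed under every alternative run. The number of the 9 genes called was 6 to 8, 5 to 8 and 7 to 8 in the 3 comparisons over all alternatives. Values of the calls that changed stand beside each gene; Spry2 in Cxcr5+Bcl6- cells reached the threshold among probe sets at or above the 25th percentile (adjusted p = 0.05 after rounding). The step difference of Dusp6 also passed with an intensity trend (adjusted p = 0.0453) and after centring (0.0446), that of Dusp10 did not pass after centring (0.087), and with all rows tested neither Dusp10 (0.104) nor Spred1 (0.133) passed. Among probe sets above the median level Spry2 had no value.

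The number of all probe sets called in Cxcr5+Bcl6- against Cxcr5-Bcl6- cells was 2610, and 1579 with all rows of the table tested, where 35556 rows share the adjustment. Leaving out each array gave 1317 to 2624 calls there, lowest without Cxcr5+Bcl6- replicate 1 and 1401 without replicate 2. It gave 3617 to 6987 between the Cxcr5+ groups (6185 with all arrays, 3617 without Cxcr5+Bcl6- replicate 1 and 3820 without replicate 2). For Cxcr5+Bcl6+ against Cxcr5-Bcl6- cells it gave 6780 to 8370 (8255 with all arrays). A fit that leaves a group with 1 array assumes that it varies like the other groups.

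The replicate numbers pair nothing by the labels, and the deviations of same-numbered arrays correlated at 0.258, -0.234 and -0.046 between pairs of groups. With the number as a replicate block, 7942, 2411 and 5862 probe sets were called in the 3 comparisons and 7 of the 9 genes in each, and the block changed no call on the 9 genes other than the step differences of Spred1 and Dusp10.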

Other observations

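Atypical dual-specificity phosphatases, small members of the family without the MAP kinase binding domain, were called at close to the share of all probe sets. Of 11 measured, 3 were higher and 2 lower in Cxcr5+Bcl6+ cells than in Cxcr5-Bcl6- cells, against 17.6% and 17.7% of all probe sets, with a median log2 difference of 0.05. Dusp22, whose product dephosphorylates the T cell receptor kinase Lck, had mean levels of 9.43 ± 0.0483 in Cxcr5-Bcl6- arrays, 8.94 ± 0.0172 in Cxcr5+Bcl6- and 8.50 ± 0.054 in Cxcr5+Bcl6+ arrays (log2, SD, n = 2 each). It fell by 0.49 at the first step and fell by 0.44 at the second (log2, adjusted p = 0.00391 and 0.00307). Dusp14, whose product acts on the adaptor TAB1, ran the other way, from 9.76 ± 0.186 over 10.18 ± 0.035 to 10.68 ± 0.0098, with a difference of 0.92 between Cxcr5+Bcl6+ and Cxcr5-Bcl6- cells (adjusted p = 2.69e-05). Dusp18, which was dim, was higher by 0.48, where the receptor probe sets were higher by a median of 0.22, and Dusp19 by 0.38 (adjusted p = 0.00188 and 0.0281), and Dusp12 differed by -0.48 by its brighter probe set (adjusted p = 0.00265) and by -0.05 by its other (adjusted p = 0.725). Between Cxcr5+Bcl6- and Cxcr5-Bcl6- cells 1 of the 11 was higher and 1 lower, against 5.22% and 5.93% of all probe sets. Between the Cxcr5+ groups 2 were higher and 1 lower, against 13.4% and 13.0%.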
